A study of Homo sapiens with 2 samples.

Results

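The genes described are 51 genes of glycolysis and of the response to low oxygen, of 26370 gene names listed for 2 libraries of a human cell line. They were taken by symbol, and their FPKM (fragments per kilobase of transcript, scaled to sequencing depth, a level per length) was summed over the transcripts of each gene. Of the 51, 31 belong to glucose uptake, glycolysis, pyruvate and lactate handling and the pentose phosphate pathway, and 20 to the hypoxia response. A mean of at least 1 FPKM over both libraries was reached by 48. The set was proposed with the ratio of these libraries already known, so every count and median of the members below is a description and was not tested.

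One library came from untreated CHME3 cells and the other from CHME3 cells given muscarinic receptor antagonists, which block the acetylcholine receptors coupled to G proteins. CHME3 is an immortalised line that the labels call microglia, the resident macrophages of the brain, and both libraries are labelled passages 4 to 6. The dosing text, 5 µg/ml and termed EC50, stands on both samples and is taken here for the treated one. Neither the compound, a vehicle in the untreated cells, nor the length of exposure is named in the labels. The study compared the messenger RNA of treated and untreated cells. With 1 library per group no difference has a replicate check, and no p-value is given.

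Depth estimated from the deposited bounds was 6834691 fragments for untreated and 7312570 for treated cells. The labelled cell type was set against 16 microglia markers, of which 9 were listed at 0 in both libraries, among them AIF1, TMEM119, CX3CR1, ITGAM, PTPRC and TYROBP. CD68, a lysosomal protein of macrophages, was at 15.7 and 12.6 FPKM, and CD14, a co-receptor for lipopolysaccharide, at 1.97 and 1.63. The 13 fibroblast and mesenchymal markers, led by FN1, VIM and COL1A1, summed to 5906 and 6418 FPKM, with COL3A1, LUM and DCN at 0 in both. Neuron markers (5 genes) summed to 29.8 and 30.4 FPKM, nearly all of it TUBB3, and astrocyte and oligodendrocyte markers (6 genes) to 4.08 and 5.30. In bulk RNA, fewer cells of a type and less RNA per cell cannot be told apart. All pairs of values are given in the order untreated and treated, and coordinates are on hg38.

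Glycolysis splits glucose into pyruvate in the cytosol. Pyruvate is either reduced to lactate, which leaves the cell through monocarboxylate transporters, or oxidised in mitochondria by pyruvate dehydrogenase, which the pyruvate dehydrogenase kinases inhibit. When oxygen is low, prolyl hydroxylases no longer mark the alpha subunits of hypoxia-inducible factor (HIF) for destruction by the VHL ubiquitin ligase. HIF then binds hypoxia response elements and raises glycolytic enzymes, glucose transporters, angiogenic factors and mitophagy receptors. HIF alpha is controlled largely at the level of protein stability, which messenger RNA does not report. Glycolysis is induced in microglia and other macrophages when they are activated.

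The hypoxia response element has a short core, ACGTG or GCGTG, and many glycolytic genes carry it as well as classical hypoxia genes. RefSeq promoters (GRCh38.p14, 250 bases before the start given there) matched 44 of the 51 members. Of these starts, 38 lay within 500 bases, on either side, of the start of the gene's most abundant deposited transcript. Windows can therefore reach past the first base of the deposited gene, and those of GAPDH, HK2 and EGLN1 lie wholly inside it. Matches past that base are counted as well. ACGTG on either strand was found in 20 of the 44 promoters (45.5%), against 18.5% of 35116 RefSeq promoters and 20.2% of 22199 promoters of protein-coding genes. GCGTG on either strand was found in 43.2% of the members' promoters, against 32.2% of all promoters and 38.3% of protein-coding ones. CACGTG reads alike on both strands and so counts on each, and matches can share bases. The members were picked by pathway, with classical HIF targets among them, so their higher share is not an independent finding. These are matches of letters and not binding sites. The following stretches lie before the first base of the deposited transcripts and are written 5′ to 3′ on the gene's strand, with ACGTG on either strand in capitals. They show ACGTG in a glycolytic gene of each library direction (ALDOC, PGK1 and LDHA) and in genes of the hypoxia response (CA9 and BNIP3). The HIF1A stretch holds no ACGTG but holds 1 GCGTG, the other core. GCGTG is left in lower case in all stretches. PGK1, CA9 and BNIP3 were chosen for printing after their values were seen.
ALDOC, chr17:28576934-28577145, minus strand: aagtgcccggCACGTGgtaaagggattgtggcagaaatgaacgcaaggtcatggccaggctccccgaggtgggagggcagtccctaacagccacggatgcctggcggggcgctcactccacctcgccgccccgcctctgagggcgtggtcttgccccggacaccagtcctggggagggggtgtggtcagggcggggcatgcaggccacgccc
PGK1, chrX:78103998-78104168, plus strand: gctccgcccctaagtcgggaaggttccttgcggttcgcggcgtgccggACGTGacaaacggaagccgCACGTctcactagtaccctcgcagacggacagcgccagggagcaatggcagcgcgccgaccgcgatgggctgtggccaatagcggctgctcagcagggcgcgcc
LDHA, chr11:18394313-18394388, plus strand: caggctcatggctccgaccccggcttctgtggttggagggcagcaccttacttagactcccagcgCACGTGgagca
CA9, chr9:35673678-35673917, plus strand: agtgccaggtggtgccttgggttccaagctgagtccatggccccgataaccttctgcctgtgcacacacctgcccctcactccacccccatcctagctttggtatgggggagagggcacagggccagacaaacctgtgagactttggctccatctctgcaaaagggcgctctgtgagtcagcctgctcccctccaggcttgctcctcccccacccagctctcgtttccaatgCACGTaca
BNIP3, chr10:131982014-131982173, minus strand: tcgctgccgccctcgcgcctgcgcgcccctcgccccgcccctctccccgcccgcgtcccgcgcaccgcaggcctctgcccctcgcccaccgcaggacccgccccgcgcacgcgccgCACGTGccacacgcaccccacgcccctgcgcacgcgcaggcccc
HIF1A, chr14:61695263-61695400, plus strand: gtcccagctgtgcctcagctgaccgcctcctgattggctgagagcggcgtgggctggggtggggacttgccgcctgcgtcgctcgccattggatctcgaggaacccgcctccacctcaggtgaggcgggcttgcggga
The full LDHA window held 5 matches counted over both strands, the most of any member, and 2 of them lie in the printed stretch. Among members over 1 FPKM, the 19 with ACGTG in the window had a median log2 ratio of 0.09, from -0.05 to 0.50, and the 22 without it a median of 0.02, from -0.26 to 0.17. Some of the 22, ENO1, PFKL and HIF1A among them, carry GCGTG, the other core. The split was not made for all genes, and a link between motif and ratio was not tested. Here and below the log2 ratio is that of treated over untreated, with 1 FPKM added to both.

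The members spanned a wide range of levels. GAPDH, which oxidises glyceraldehyde-3-phosphate (chromosome 12, 6534405 to 6538375), held rank 2 of all genes by FPKM in both libraries. The median level of the 48 members over the floor was 55.1 and 51.2 FPKM, and that of all 11668 such genes 10.5 and 10.6. All 51 members summed to 14566 and 15075 FPKM, which was 2.98% and 3.08% of all FPKM listed. Under the floor were EGLN3, a HIF prolyl hydroxylase (0.289 and 0.431 FPKM from 5 and 8 fragments), CA12, a membrane carbonic anhydrase (0.848 and 0.651 from 23 and 19), and ANKRD37, a HIF target (0.789 and 1.09 from 3 and 5). Their counting intervals are wide: that of the ANKRD37 ratio of 1.38 ran from 0.279 to 9.24.

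**Figure D1:**
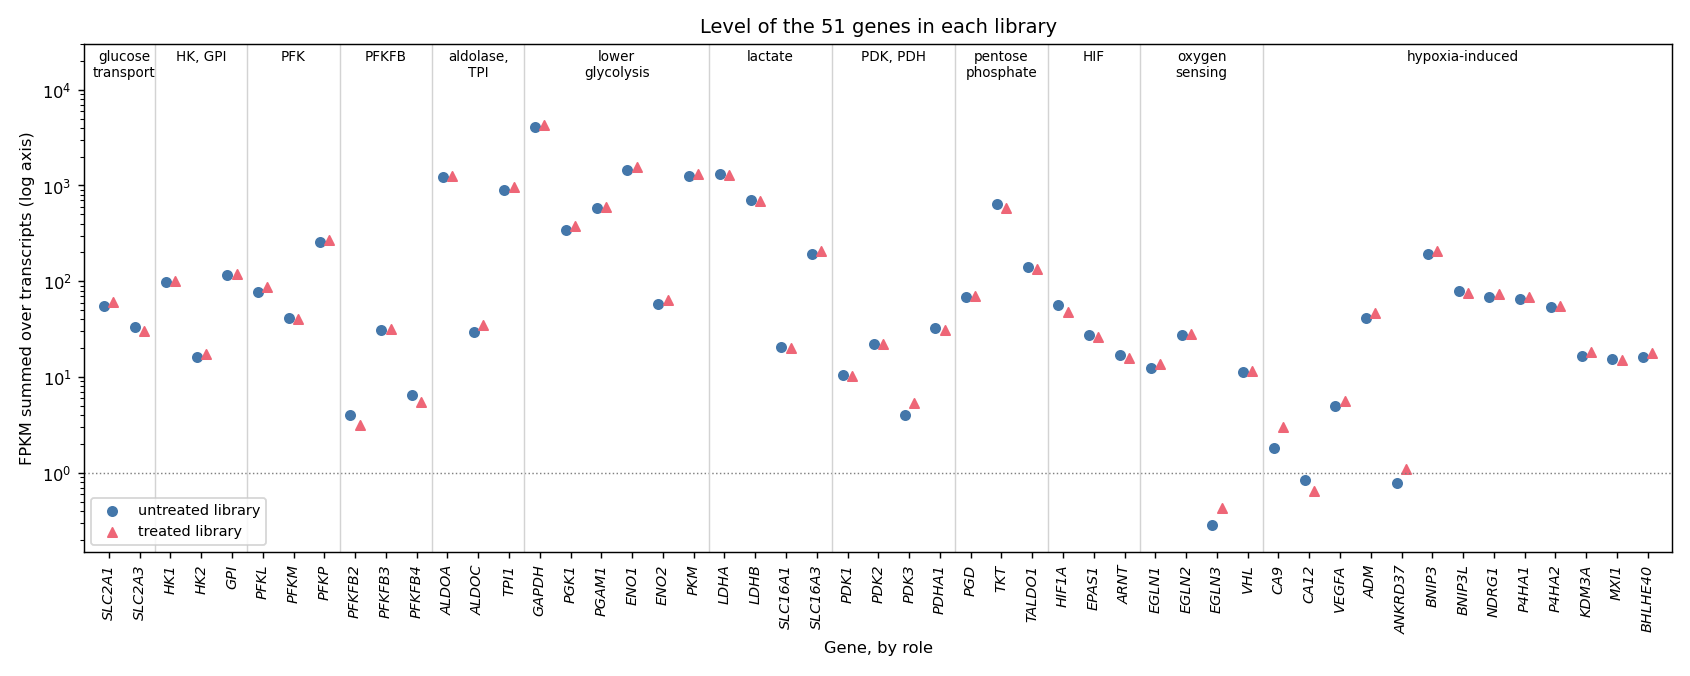
FPKM of each of the 51 genes on a log axis, with the untreated library as circles and the treated library as triangles, grouped by role. GAPDH lies highest, ENO1, LDHA, PKM and ALDOA also lie above 1000 FPKM in both libraries, and EGLN3, CA12 and ANKRD37 lie around or under the dotted line at 1 FPKM.

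Differences between the libraries were small throughout. Of the 48 members, 32 were higher and 16 lower in the treated library, and among all genes over the floor 50.7% were higher and 49.3% lower. The members' median log2 ratio was 0.05, beside 0.0026 for all genes, and the extremes were HIF1A at -0.26 and CA9 at 0.50. By a rule of size, a ratio of (FPKM + 1) at least 25% above 1, CA9 and PDK3 were higher. None was lower by the same fold, which is 20% below 1. The shares of all genes past it were 5.49% higher and 4.29% lower. Next inside the rule was PDK3 at a log2 ratio of 0.35, and next outside it ALDOC at 0.25. No member reached 2-fold, which 0.66% of all genes did in either direction.

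**Figure D2:**
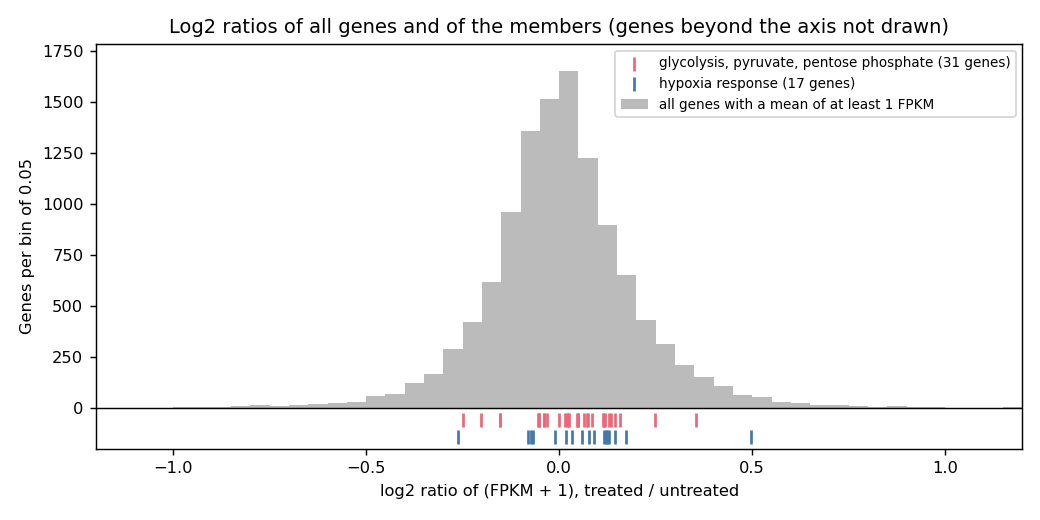
Number of genes per bin of the log2 ratio of (FPKM + 1) for all 11668 genes averaging 1 FPKM or more, with each member as a tick under the axis. The members run from -0.26 (HIF1A) to 0.50 (CA9), and CA9 and PDK3 (0.35) lie in the thin upper tail.

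A 95% interval for each FPKM ratio was computed from estimated fragments. It covers counting error only and compares these libraries, not the conditions. It leaves out the scaling between libraries, PCR duplicates, and the division of reads between isoforms and near copies. For genes with several transcripts the authors' bounds can be wider, as for GAPDH below. The interval lay above 1 in 13 of the 48 members and below 1 in 4, where 6.44% and 6.07% of all genes did so. Of those 4 (HIF1A, TKT, LDHA and SLC2A3), only HIF1A had authors' bounds of its main transcript that lay apart between the libraries. The members were more deeply covered than most genes, with a median of 1845 fragments over both libraries against 422 for all genes, which narrows their intervals. Among the 6017 genes averaging at least 10 FPKM the shares were 7.18% above and 8.36% below. Of the 13, 12 were among the 31 genes of glucose, pyruvate and pentose phosphate metabolism, and 1, BNIP3, was in the hypoxia response. Among the 12 is PDK3, whose ratio and interval depended on the measure, as given below.

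**Figure D3:**
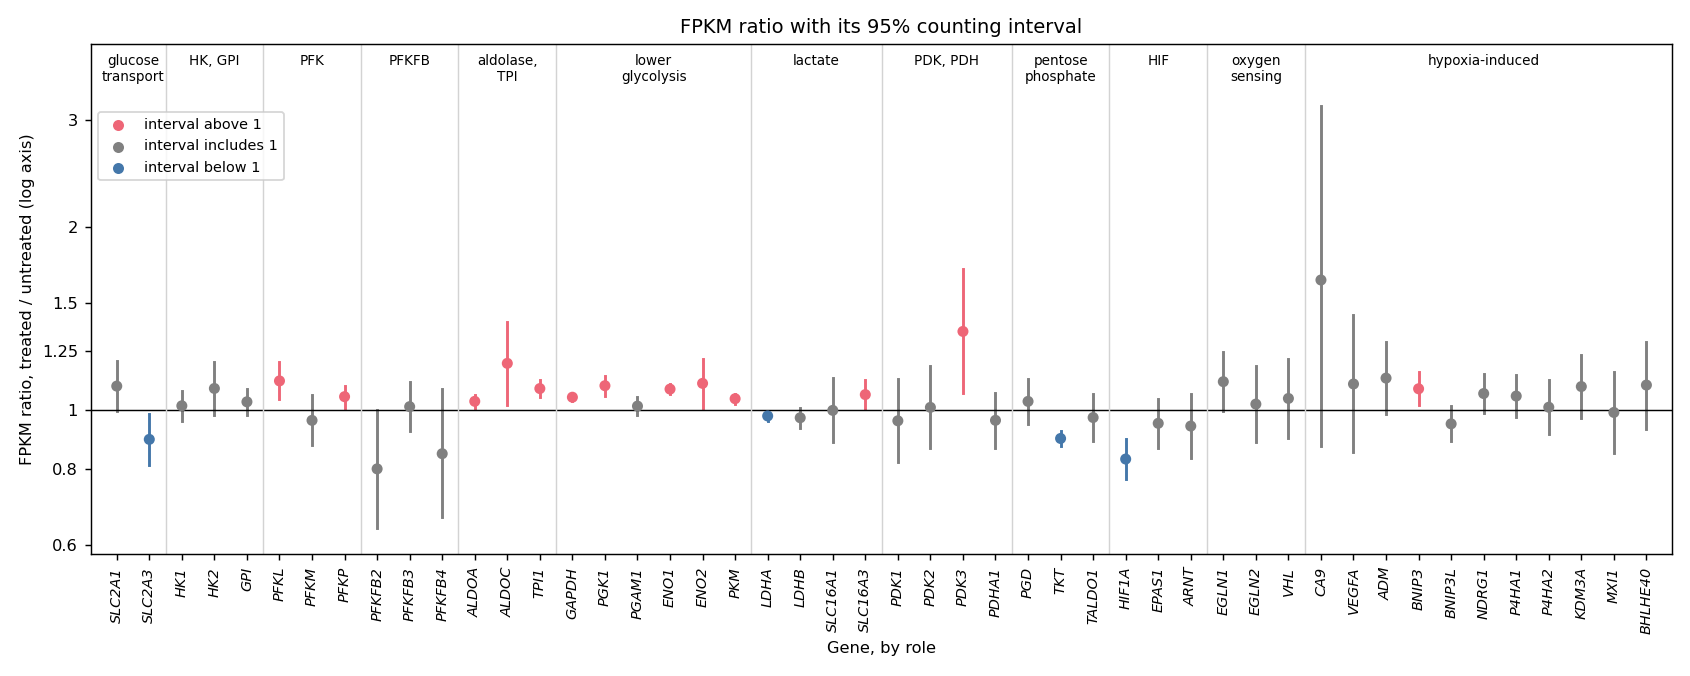
FPKM ratio of treated over untreated on a log axis, with its 95% counting interval, for the 48 members over the floor, ordered by role. The intervals of HIF1A, TKT, LDHA and SLC2A3 lie below 1, and 13 others, 10 of them enzymes of glycolysis, lie above it.

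Of the glucose transporters, SLC2A1, the basal transporter GLUT1 (chromosome 1, 42925375 to 42959176), was at 55.7 and 61.1 FPKM. Its ratio was 1.10, with an interval of 0.998 to 1.21 that reaches 1. SLC2A3, the high-affinity transporter GLUT3 (chromosome 12, 7919228 to 7936296), was at 33.6 and 30.1 FPKM, which gives a ratio of 0.896 (0.813 to 0.988). The pair thus lay on opposite sides of 1, and SLC2A1 made up 62.4% (60.1 to 64.6) and 67.0% (64.9 to 69.1) of their summed FPKM. The difference of SLC2A1 depended on the measure: it had 836 and 926 recovered fragments, beside 846 and 813 of SLC2A3, and in fragments scaled to depth its log2 ratio was 0.05 in place of 0.13.

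Enzymes of the 10 glycolytic steps were slightly higher in the treated library. Of the 15 genes, 14 were higher and 1, PFKM, was lower, with a median log2 ratio of 0.07. The interval lay above 1 in 10, beside 6.44% of all genes. The 15 are deeply covered, with a median of 9184 fragments over both libraries against 422 for all genes. Shares among genes of like depth were not computed. By the authors' bounds of the most abundant transcript, only PGK1 of the 10 lay apart between the libraries. The summed level of the 15 was 10561 and 11149 FPKM, which gives a ratio of 1.06, or 2.16% and 2.28% of all FPKM. In the upper part, HK1 and HK2, the hexokinases that trap glucose in the cell, were at 98.7 and 100.4 and at 16.1 and 17.4 FPKM. GPI, which converts glucose-6-phosphate to fructose-6-phosphate, was at 115 and 119 FPKM, and all 3 intervals include 1.

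Phosphofructokinase, the committed step, has a platelet, a liver and a muscle subunit. PFKP, the platelet form and the most abundant here, was at 256 and 269 FPKM, which gives a ratio of 1.05 (1.01 to 1.10). PFKL, the liver form, was at 77.5 and 86.6, a ratio of 1.12 (1.04 to 1.199). PFKM, the muscle form, was at 41.7 and 40.1, with an interval of 0.876 to 1.06, and 230 of its exon bases overlap SENP1 on the other strand (6.08 and 7.14 FPKM). The subunit make-up was nearly the same in both libraries, with PFKP at 68.2% and 68.0% of the summed FPKM.

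The PFKFB enzymes make and break down fructose-2,6-bisphosphate, the main activator of phosphofructokinase. PFKFB3, the form with the strongest kinase activity, was at 31.2 and 31.7 FPKM, and its most abundant transcript alone was slightly lower (log2 ratio -0.02). The rarer forms had lower values in the treated library: PFKFB4 was at 6.53 and 5.54 and PFKFB2 at 3.97 and 3.18 FPKM. Both intervals include 1 (0.668 to 1.083 for PFKFB4 and 0.640 to 1.0002 for PFKFB2). The median log2 ratio of the 3 was -0.20, the lowest of any role.

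Aldolase cleaves fructose-1,6-bisphosphate, and triose phosphate isomerase interconverts its products. ALDOC, the brain aldolase (chromosome 17, 28573115 to 28576933), was at 29.4 and 35.1 FPKM (289 and 373 fragments), which gives a ratio of 1.19 (1.02 to 1.39). ALDOA, the ubiquitous form, was at 1222 and 1264, a ratio of 1.03 (1.01 to 1.06), and TPI1 at 896 and 973, a ratio of 1.09 (1.05 to 1.12). ALDOA still made up 97.7% and 97.3% of the 2 aldolases, so the larger ratio of ALDOC belongs to a small part of the pool.

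All 6 genes of lower glycolysis, which yields the ATP of the pathway, were higher, with a median log2 ratio of 0.09. The interval lay above 1 in 5, beside 6.44% of all genes. Their median was 27343 fragments over both libraries, against 422 for all genes, which narrows their intervals. GAPDH was at 4119 and 4329 FPKM (34059 and 38610 fragments), which gives a ratio of 1.05 (1.04 to 1.07). The authors' bounds of its main transcript, 3888 to 4235 and 4083 to 4445 FPKM, overlap between the libraries. PGK1, the first ATP-yielding kinase (chromosome X, 78104169 to 78126827), was at 345 and 378, a ratio of 1.10 (1.06 to 1.14). ENO1, the ubiquitous enolase (chromosome 1, 8861000 to 8879092), was at 1437 and 1557, a ratio of 1.084 (1.06 to 1.10). ENO2, the neuronal enolase, was at 57.98 and 64.2, a ratio of 1.11 (1.01 to 1.21), and PKM, pyruvate kinase, at 1263 and 1319.7, a ratio of 1.04 (1.03 to 1.07). The exception was PGAM1, phosphoglycerate mutase, at 587 and 596 FPKM, whose interval of 0.981 to 1.05 includes 1. Its near-identical copy PGAM4 was listed at 17.6 and 18.3 FPKM, and how reads were divided between the 2 is uncertain. Related genes of GAPDH (GAPDHS), PGK1 (PGK2) and LDHA (LDHAL6A and LDHAL6B) and the TPI1 copies TPI1P2 and TPI1P3 were each listed under 1 FPKM in both libraries. Further copies of these genes were not examined.

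The lactate genes lay on both sides of 1. LDHA, the lactate dehydrogenase subunit that favours lactate formation and a classical HIF target (chromosome 11, 18394389 to 18408218), was at 1316 and 1288 FPKM, which gives a ratio of 0.979 (0.959 to 0.999). LDHB, the heart subunit, was at 709 and 689 with an interval of 0.937 to 1.01, and the share of LDHA in the pair was 65.0% and 65.1%. SLC16A3, the lactate exporter MCT4, was at 194 and 206 FPKM, which gives a ratio of 1.06 (1.005 to 1.12). SLC16A1, the monocarboxylate transporter MCT1, was at 20.4 in both libraries. Thus the enzyme was slightly below 1 and its exporter slightly above it, each by an amount near the edge of its counting interval. Under upper-quartile scaling the log2 ratio of LDHA was -0.02 in place of -0.03.

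At the entry of pyruvate into mitochondria, PDHA1, the catalytic alpha subunit of pyruvate dehydrogenase, was at 32.6 and 31.4 FPKM. It shares 954 exon bases with MAP3K15 on the other strand, listed under 1 FPKM. PDK1, the kinase induced by HIF, was at 10.6 and 10.2 FPKM, and PDK2, the most abundant kinase, at 21.9 and 22.2, both with intervals that include 1 and with signs that turn under other settings. PDK3 (chromosome X, 24465227 to 24550466) was at 4.02 and 5.42 FPKM, which gives a ratio of 1.35 (1.07 to 1.70). The difference of PDK3 depended on the measure: it had 139 and 160 estimated fragments, and in fragments scaled to depth its log2 ratio was 0.10 in place of 0.35. Its interval is placed around the FPKM ratio and so shares this dependence. An interval around the ratio of scaled fragments was not computed, so its place among the members above 1 is uncertain. Its short transcript NM_005391 (1803 bases) was listed at 68.6% and 78.0% of the gene's FPKM beside NM_001142386 (12779 bases), and the authors' bounds of each transcript overlap between the libraries.

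Of the pentose phosphate pathway, which supplies NADPH and ribose, only TKT had an interval below 1. TKT, transketolase (chromosome 3, 53224707 to 53256114), was at 647 and 582 FPKM (8849 and 8517 fragments), which gives a ratio of 0.899 (0.872 to 0.926). The authors' bounds of its main transcript, 571 to 628 and 525 to 577 FPKM, overlap between the libraries. Those of its minor transcripts NM_001135055 and NR_047580 do not. TALDO1, transaldolase, was at 139 and 136, and PGD, which makes NADPH, at 68.6 and 70.9, both with intervals that include 1. TKT was thereby the most abundant member with a ratio below 0.9.

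The HIF subunits were all lower in the treated library, with a median log2 ratio of -0.08. HIF1A, the oxygen-labile subunit that drives glycolytic targets (chromosome 14, 61695401 to 61748259), was at 56.9 and 47.3 FPKM (1502 and 1340 fragments), which gives a ratio of 0.832 (0.772 to 0.896). With 1 FPKM added, HIF1A had the lowest log2 ratio of any member. Without it the FPKM ratios of PFKFB2 (0.801) and of CA12 (0.767, under the floor) were lower, with intervals that include 1. HIF1A shares 1221 exon bases with HIF1A-AS2 on the other strand, which was itself listed at 34.1 and 24.7 FPKM. The labels do not say whether reads keep their strand, so the genes cannot be told apart there, and the part of HIF1A-AS2 in the HIF1A value was not tested. EPAS1, which encodes HIF-2 alpha, was at 27.4 and 26.1 FPKM, and ARNT, the constitutive partner, at 16.9 and 15.9, both with intervals that include 1. HIF1A made up 67.5% (65.6 to 69.3) and 64.4% (62.5 to 66.4) of the 2 alpha subunits.

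The oxygen sensors showed no difference beyond counting error. EGLN1, the main prolyl hydroxylase and itself a HIF target, was at 12.3 and 13.7 FPKM (interval 0.996 to 1.249). EGLN2, another prolyl hydroxylase, was at 27.4 and 28.01, and VHL at 11.2 and 11.7. The values of all 3 were higher in the treated library, by a median log2 ratio of 0.06.

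Of the 11 hypoxia-induced genes over the floor, 9 were higher and 2 lower, beside 50.7% and 49.3% of all genes. Their median log2 ratio was 0.12. The interval lay above 1 in 1 of them, beside 6.44% of all genes. Their median coverage was 1116 fragments over both libraries, against 422 for all genes. BNIP3, a mitophagy receptor (chromosome 10, 131967683 to 131982013), was at 193 and 209.5 FPKM, which gives a ratio of 1.085 (1.02 to 1.15). Its relative BNIP3L lay on the other side, at 79.0 and 75.1 with an interval of 0.890 to 1.01. CA9, the membrane carbonic anhydrase widely used as a hypoxia marker (chromosome 9, 35673918 to 35681157), was at 1.83 and 2.99 FPKM. That is 17 and 30 fragments, and the interval of its ratio of 1.64 runs from 0.875 to 3.16.

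The remaining hypoxia-induced genes had intervals that include 1. VEGFA, the angiogenic growth factor (chromosome 6, 43770209 to 43786486), was at 5.05 and 5.58 FPKM, and ADM, the vasodilator peptide adrenomedullin, at 41.5 and 46.8. NDRG1, a stress-response gene, was at 68.8 and 73.3. The collagen prolyl hydroxylase subunits P4HA1 and P4HA2 were at 64.9 and 68.5 and at 54.5 and 55.2. Among regulators, KDM3A, a histone demethylase, was at 16.8 and 18.4, BHLHE40, a repressor, at 16.2 and 17.8, and MXI1, a MYC antagonist, at 15.3 and 15.1. The sign of MXI1 turned under upper-quartile scaling. The ratio of HIF1A lay below 1 and those of most of these genes above it, the latter within counting error. A link between them was not tested.

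In each of 12 families the same member had the highest FPKM in both libraries. Shares were not alike in all: the intervals of the SLC2A1 share, 60.1 to 64.6% and 64.9 to 69.1%, do not overlap. HK1 held 86.0% and 85.2% of the hexokinases, ENO1 96.1% and 96.0% of the enolases, SLC16A3 90.5% and 91.0% of the lactate transporters and P4HA1 54.4% and 55.4% of the collagen hydroxylase subunits. PFKFB3 held 74.8% and 78.4% of its family, PDK2 59.9% and 58.6% of the kinases and EGLN2 68.4% and 66.4% of the HIF hydroxylases, with no interval computed for families of 3.

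**Figure D4:**
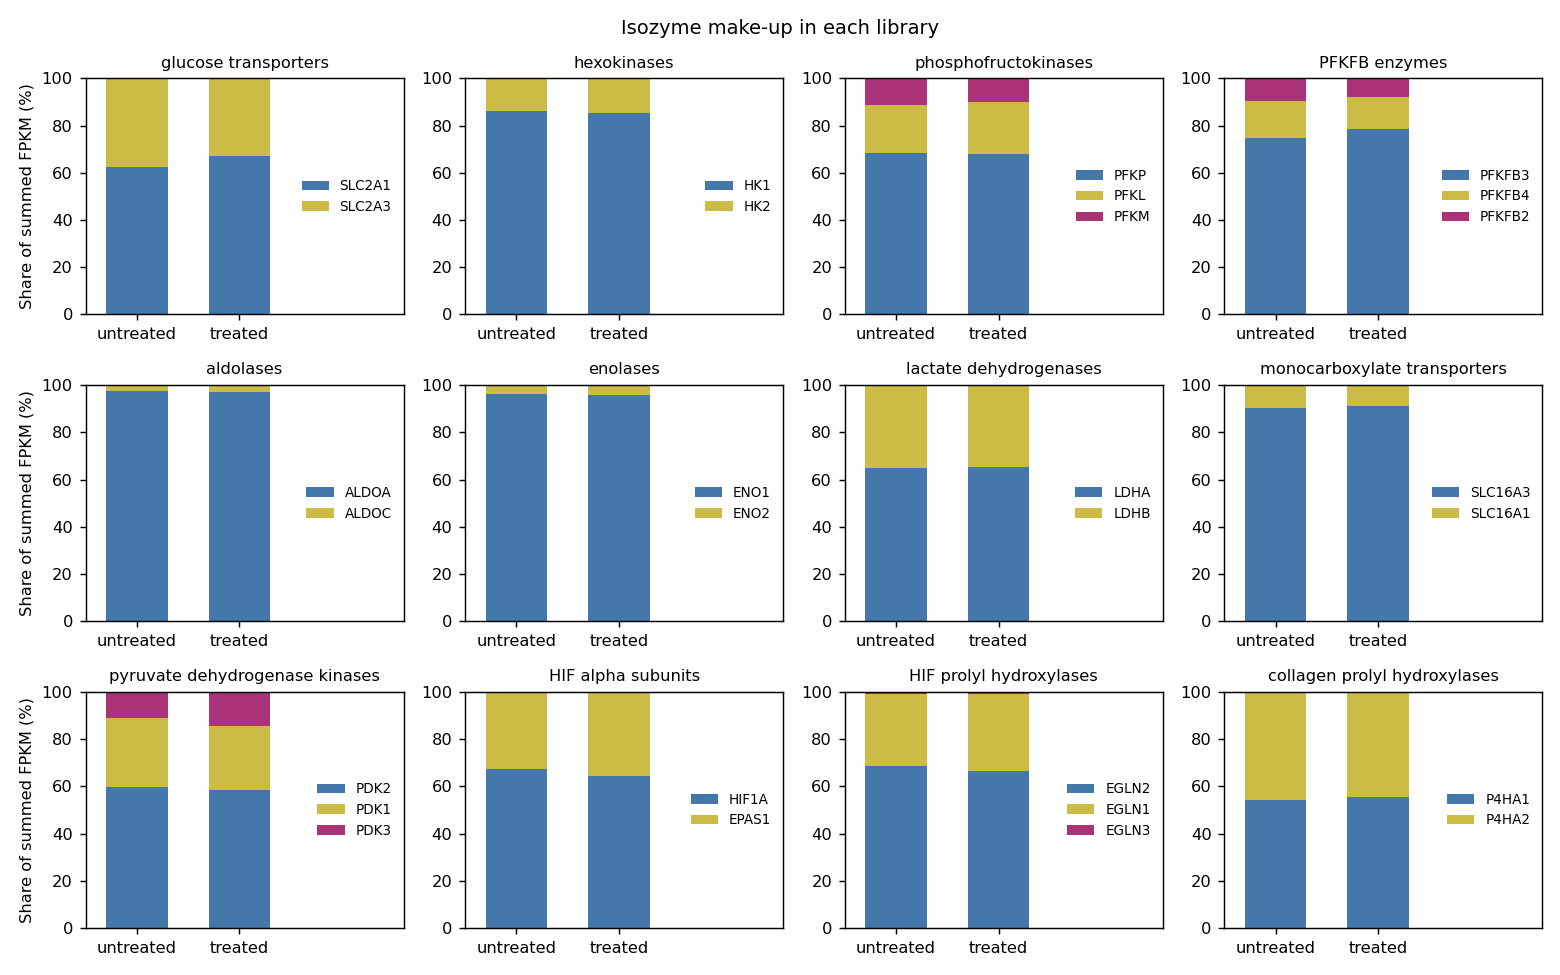
Share in percent of the summed FPKM of each isozyme family in the untreated and treated library, with 1 bar per library. The leading member is the same in both bars of every family, and the widest difference among the families of 2 is that of SLC2A1, at 62.4% and 67.0%.

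Which transcript of a gene was used was examined for the 22 members with at least 2 transcripts of at least 1 FPKM on average. The largest difference in a transcript's share of its gene was a median of 2.13 percentage points over these members, beside 7.998 over all 3620 such genes. It reached 10 points in 4 members (VEGFA, P4HA2, KDM3A and MXI1), as in 43% of all such genes. How the authors' software divided reads between transcripts adds an error that no interval here covers.

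Pyruvate kinase has mutually exclusive exons that set its regulation. The PKM2 exon, of the form found in most proliferating cells (chromosome 15, 72202454 to 72202620, 167 bases), was carried by transcripts holding 95.9% of PKM in both libraries. The PKM1 exon, of the constitutively active form of muscle and brain (72203022 to 72203188), was carried by 4.13% in both, or an estimated 832 and 937 fragments. The proportion of the PKM forms was therefore the same to 3 digits. HIF1A and HK1 also kept 1 dominant transcript, NM_001530 at 95.7% and 96.3% of HIF1A and NM_000188 at 99.4% and 99.9998% of HK1.

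VEGFA had the widest isoform difference, although the interval of its total ran from 0.853 to 1.43 and includes 1. Exons 6 and 7 of VEGFA encode stretches that bind heparan sulphate and retain the growth factor near the cell. Transcripts with exon 7 (chromosome 6, 43781956 to 43782087, 132 bases) but not exon 6 held 28.6% of its untreated and 75.6% of its treated FPKM. Transcripts with neither, which encode the freely diffusing form, held 71.4% and 24.4%. These shares rest on an estimated 33 and 103 fragments with exon 7 alone, and 79 and 32 with neither, spread over 10 listed transcripts. The exon 7 group was mostly NM_001171626, at 0.991 and 4.16 FPKM (authors' bounds 0.445 to 1.54 and 3.21 to 5.11). Its counterpart was NM_001171628 at 3.60 and 0.951 (2.66 to 4.55 and 0.388 to 1.51), and neither pair of bounds overlaps. A difference of at least 50 points was listed for 2.49% of the 3620 genes, a mark chosen after the VEGFA value was seen.

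In P4HA2 the mutually exclusive exon pair was used alike. Transcripts with the 60-base exon (chromosome 5, 132198321 to 132198380) held 49.1% and 45.5%, and those with the 66-base exon (132198206 to 132198271) 50.9% and 54.5%. Its difference lay at the 5′ end. NM_001017974, which lacks the 136-base exon at 132227086 to 132227221, was at 25.9 and 16.0 FPKM, while NM_001142598, which has it, was at 0.776 and 8.42. In KDM3A, NM_018433, whose first exon lies at chromosome 2, 86441148 to 86441444, held 9.80% and 25.03%, and NM_001146688, which starts at 86441461, held the rest. The most abundant KDM3A transcript alone was therefore lower, with a log2 ratio of -0.13. In MXI1, which also has alternative first exons, NM_005962 held 57.0% and 45.6% and NM_130439 40.1% and 49.8%, with authors' bounds that overlap between the libraries.

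**Figure D5:**
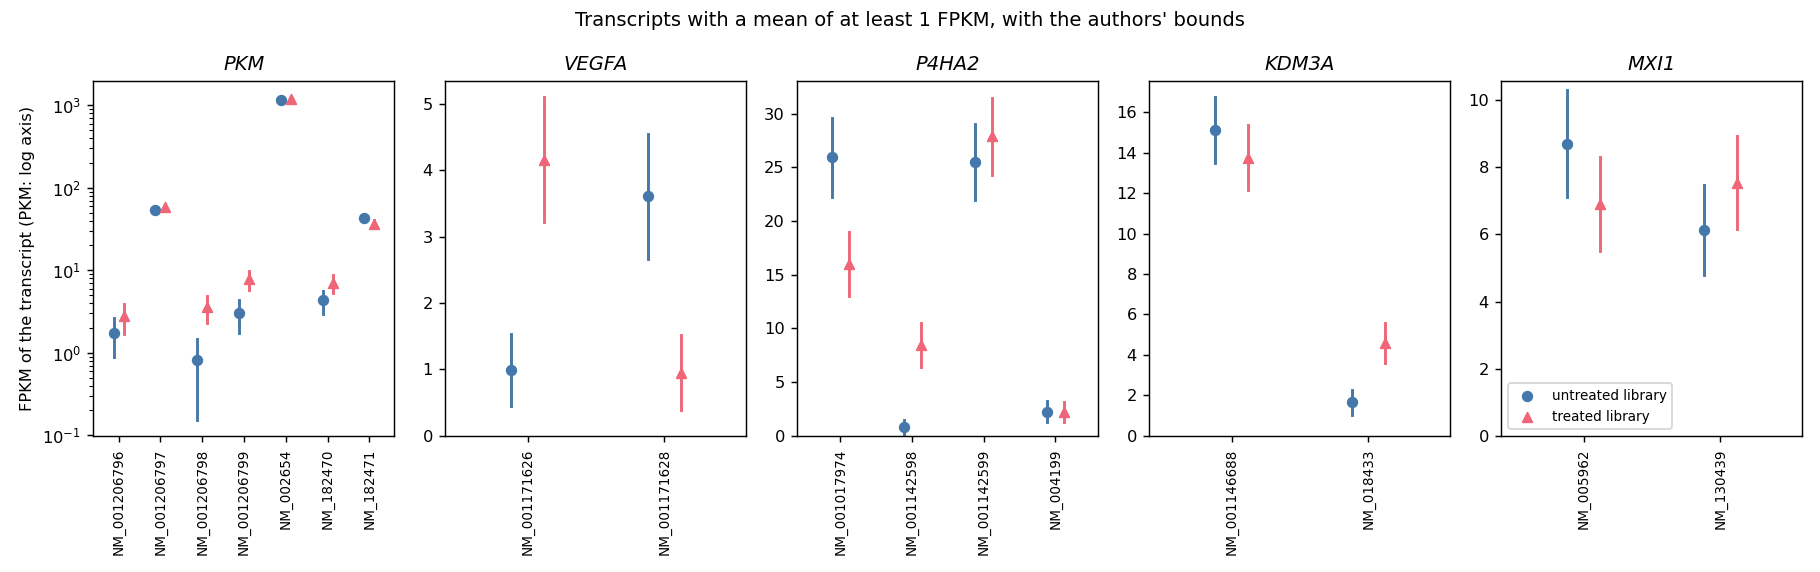
FPKM of the transcripts with a mean of at least 1 FPKM for PKM (log axis), VEGFA, P4HA2, KDM3A and MXI1, with the authors' deposited bounds as bars. The untreated library is shown as circles and the treated library as triangles. In VEGFA the bars of both transcripts are apart between the libraries (0.991 and 4.16 FPKM, 3.60 and 0.951 FPKM), while the main PKM transcript is nearly level.

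Genes of the same pathways outside the 51 were counted as well, from lists drawn up with earlier results of these data known. Of 52 other genes of glycolysis, gluconeogenesis, pyruvate and pentose phosphate metabolism, 34 passed the floor and 8 were listed at 0 in both libraries. Of the 34, 16 were higher and 18 lower, with a median log2 ratio of -0.01. The interval lay above 1 in 2 and below 1 in 1, beside 6.44% and 6.07% of all genes. Past the rule of size was 1, BPGM, on the higher side, beside 5.49% of all genes. BPGM, which makes 2,3-bisphosphoglycerate, was at 5.97 and 7.77 FPKM from 65 and 91 fragments (interval 0.936 to 1.82). PCK2, the mitochondrial enzyme that makes phosphoenolpyruvate, was at 21.1 and 25.2, a ratio of 1.19 (1.03 to 1.39). SLC2A8, an intracellular glucose transporter, PGM2, a phosphoglucomutase, and PGAM2, the muscle mutase, were higher by 0.25, 0.21 and 0.20 on the log2 scale. PDP1, a pyruvate dehydrogenase phosphatase, was at 10.6 and 9.12 FPKM, and the intervals of these 4 include 1.

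Of 44 other hypoxia genes, 38 passed the floor, with 27 higher, 11 lower and a median log2 ratio of 0.06. The interval lay above 1 in 4 and below 1 in 2, beside 6.44% and 6.07% of all genes. Past the rule of size were 3 of the 38, all higher, beside 5.49% of all genes. They were TMEM45A, a membrane protein (2.88 and 3.86 FPKM), INSIG2, which restrains sterol synthesis (6.49 and 8.37), and FUT11, a fucosyltransferase (7.85 and 10.1). The intervals of these 3 include 1. DDIT4, the mTORC1 inhibitor REDD1, was at 32.5 and 39.6 FPKM, which gives a ratio of 1.22 (1.05 to 1.40), and RAB20, a small GTPase, at 8.47 and 10.4 with an interval that includes 1. On the lower side WSB1, a ubiquitin ligase subunit, was at 22.5 and 19.0, a ratio of 0.844 (0.730 to 0.974).

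Mitochondrial respiration genes served as comparison. The 76 nuclear genes of oxidative phosphorylation had 37 higher and 39 lower and a median log2 ratio of -0.0010, and the 17 genes of the tricarboxylic acid cycle 7 higher and 10 lower and a median of -0.03. The interval lay above 1 in 4 and below 1 in 3 of the 76, and in 0 and 1 of the 17, beside 6.44% and 6.07% of all genes. NDUFC1, of complex I, was at 49.5 and 37.5 FPKM, which gives a ratio of 0.758 (0.610 to 0.939), and COX5B, of cytochrome oxidase, at 204 and 247, a ratio of 1.21 (1.07 to 1.37). IDH3A, an isocitrate dehydrogenase subunit, was at 17.6 and 13.3 FPKM, which gives a ratio of 0.759 (0.633 to 0.901). OGDHL, an oxoglutarate dehydrogenase relative, was at 1.33 and 0.768 from 30 and 19 fragments, with an interval that includes 1. The difference between the glycolytic median of 0.05 and these medians was not tested. Of the 9 mesenchymal markers past the floor, 6 were higher and 3 (PDGFRB, THY1 and S100A4) lower, with a median log2 ratio of 0.10. The interval lay above 1 in 5 of these 9 and below 1 in 0, so intervals above 1 were not particular to glycolysis. Like the glycolytic enzymes they are deeply covered, with a median of 4328 fragments over both libraries. Their part in the values of the glycolytic enzymes was not tested.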

How the data were processed

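RNA of 2 libraries, 1 untreated and 1 treated, was read on an Illumina HiSeq instrument after TruSeq preparation, per the labels' protocols. TopHat and Cuffdiff with build hg38 are named in the submitters' processing notes, without versions, and each line of the deposited files names Cufflinks as its source. The authors deposited, per RefSeq transcript, an FPKM with lower and upper bounds. The other values kept in that deposited text field, coverage among them, and the deposited score of each transcript were not used. Both files list 56891 transcripts of 26370 gene names, and 0 further columns of per-sample values.

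FPKM was summed per gene, and the ratio was log2 of (treated + 1) over (untreated + 1), a scale that understates the change of low genes. Genes averaging 1 FPKM or more entered. Fragments were recovered as the square of 2 × FPKM over the distance to the upper bound for genes with 1 transcript, and otherwise estimated from FPKM, length and depth. Of the recovered values 21.1% (untreated) and 21.3% (treated) were whole within 0.01, so they are estimates. Ratio and share intervals are 95% exact (Clopper-Pearson) binomial intervals on fragments. The script was tested on simulated data.

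The members and all gene lists were chosen with earlier results of these data known. Named are all members, up to 6 genes of each further pathway list and up to 2 of each compared list by absolute log2 ratio, the 3 highest markers of a list (1 is withheld and not reported here) and those at 0, and transcripts of PKM, VEGFA, HIF1A, HK1 and members whose transcript shares differ by at least 10 points. Promoters came from RefSeq (GRCh38.p14), and 15 oxidative phosphorylation and 2 hypoxia genes were matched by an older symbol. The 10 alternatives were 2 pseudocounts, 2 floors, 4 scalings, the most abundant transcript and fragments scaled to depth. Python 3.11.15, numpy 2.4.6, pandas 2.3.3, scipy 1.17.1 and matplotlib 3.10.9 were used.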

Additional observations from a re-analysis of the deposited data

How the results depend on the processing

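The count of 2 members at least 25% higher was 0 with a pseudocount of 5, 0 among members with a mean of at least 5 FPKM, which leaves out both genes, and 1 in fragments scaled to depth, where PDK3 had a log2 ratio of 0.10. It was 2 or 3 under the other 7 alternatives, and no member was 20% lower under any. The members' median log2 ratio ranged from 0.03 (most abundant transcript) to 0.06 (upper-quartile scaling), with 30 to 34 members higher and 14 to 17 lower. The median of the other glycolysis genes ranged from -0.02 to 0.03 and that of the tricarboxylic acid cycle from -0.03 to 0.05, both across 0, and that of the other hypoxia genes from 0.03 to 0.09. Of 477 values of single members under alternatives, 474 stayed within their counting interval and 3 moved, all with the most abundant transcript: VEGFA (1.37), KDM3A (-0.13) and MXI1 (-0.30). The sign was the same under every alternative for 42 of 48 members, and it turned for KDM3A, MXI1, PDK1, PDK2, PFKFB3 and SLC16A1. No paired analysis was possible because each group has 1 library, and for the same reason no library could be left out. Depth limits CA9, CA12, EGLN3 and ANKRD37 in particular, each with 30 or fewer fragments per library.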
